A study of Mus musculus with 7 samples.

Results

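A group of 8 genes of the uterine glands was followed through mouse uterine tissue that had received the chemokine CXCL12 or saline. They were the transcription factors Foxa2 and Sox9, the implantation serine peptidases Prss28 and Prss29, and the secretory products Spink3, Cxcl15, Ttr and Wfdc3. All 8 members were found by gene symbol among the 23282 rows of the tables, Spink3 under its current symbol Spink1, and all 8 passed the filters on low values. The tissue came from C57BL/6 female mice that were 6 weeks old. In the treated horn, 100 ng of recombinant human CXCL12 was infused in 30 µl of saline, and the contralateral horn received saline alone. QuantSeq 3′ mRNA sequencing, which counts reads from the 3′ end of polyadenylated transcripts, covered 2 saline-treated libraries, 2 libraries of CXCL12 Day 3 and 3 libraries of CXCL12 Day 8. No day is given in the labels for saline-treated libraries, and they do not say which libraries came from separate animals, so the p-values measure the spread between these samples, which may be technical.

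Uterine glands are tubes of epithelium that open into the uterine lumen and release the fluid in which the embryo attaches. FOXA2 is the forkhead factor that marks gland cells in the adult mouse uterus and is needed for the glands to form and to make leukaemia inhibitory factor. SOX9 is present in the same cells. PRSS28 and PRSS29 are secreted trypsin-like peptidases known as implantation serine proteinases, and progesterone induces them in the glands around implantation. SPINK3 is a Kazal-type inhibitor of trypsin, CXCL15 a chemokine of secretory epithelia, TTR the carrier of thyroxine and retinol-binding protein, and WFDC3 a secreted protein with whey acidic protein domains, a fold shared by many peptidase inhibitors.

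Prss28 and Prss29 are neighbours on chromosome 17, and their promoters are shown because the counts of both genes were high in the same 2 libraries. Sequences run from 250 bases before to 50 after the RefSeq start (GRCm38.p6), both on the plus strand, at chr17:25308396-25308695 for Prss28 and chr17:25318404-25318703 for Prss29. Capitals mark the 3 runs of at least 10 bases that occur in both.
Prss28: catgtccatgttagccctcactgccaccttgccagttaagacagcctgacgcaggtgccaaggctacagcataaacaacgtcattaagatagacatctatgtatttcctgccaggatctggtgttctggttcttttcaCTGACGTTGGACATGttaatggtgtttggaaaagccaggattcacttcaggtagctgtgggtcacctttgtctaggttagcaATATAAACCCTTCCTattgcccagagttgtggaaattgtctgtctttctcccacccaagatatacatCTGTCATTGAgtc
Prss29: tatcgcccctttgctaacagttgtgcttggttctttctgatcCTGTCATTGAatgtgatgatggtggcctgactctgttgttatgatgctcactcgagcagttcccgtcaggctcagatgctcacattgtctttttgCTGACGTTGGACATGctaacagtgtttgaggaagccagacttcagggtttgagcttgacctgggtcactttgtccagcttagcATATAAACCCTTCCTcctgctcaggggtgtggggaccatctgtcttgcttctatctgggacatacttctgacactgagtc
The run CTGACGTTGGACATG starts at -112 from the start in Prss28 and at -113 in Prss29. The run ATATAAACCCTTCCT, which holds a TATAAA, starts at -30 in both. Each of these 15-base runs occurs in 2 of 32851 RefSeq promoters of the same length, read on both strands, which are these 2. The shorter run, CTGTCATTGA, lies at different distances in the 2 promoters and occurs in 0.0578% of promoters. Of the members, 5 had an entry in the promoter table. Both strands were searched for the forkhead letters TGTTTAC and TATTTAC and for the Sox letters ATTGTT, where TGTTTAC and ATTGTT share the letters TGTT and can overlap. The search found 1 match, of TATTTAC, which lay at -238 in the Cxcl15 promoter, and none in the windows of Prss28, Prss29, Foxa2 or Wfdc3. In all promoters, TGTTTAC occurred in 3.65%, TATTTAC in 3.04% and ATTGTT in 10.7%.

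The count libraries held between 6908790 and 12308982 counts. For Day 3 replicate 1, the table gives log2 values of normalized counts, from which whole counts were estimated, so its values below are estimates. Levels are CPM, the counts divided by library sizes that were scaled by the trimmed mean of M-values (TMM). The floor, set at 3 counts, corresponds to between 0.247 and 0.368 CPM and covers counting error only. Without TMM, CPM moves the median of all genes by -0.28 on the log2 scale between Day 8 and saline and by -0.27 between Day 3 and saline. Day 8 replicate 1 stood apart from the other Day 8 libraries. Its label gives Day 8, but its table is named for Day 3. Over 16472 genes, it correlated with Day 8 replicates 2 and 3 at a Pearson r of 0.911 each and with both Day 3 libraries at 0.95. Its correlation with saline replicate 2 was 0.947, close to that with Day 3, and that with saline replicate 1 was 0.91. Day 8 replicates 2 and 3 correlated at 0.939 with each other. Genes are not independent replicates in such correlations. The library was kept at Day 8. Values that turn on it are also given without it for the members and for many, not all, of the list calls.

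Between CXCL12 Day 8 and saline, 5 of the 8 members passed the unadjusted limits, a fold change of at least 2 with P under 0.05, all higher at Day 8. They were Prss28, Prss29, Spink1, Ttr and Wfdc3. Of all 15388 genes tested, 2.94% passed the same limits. The filter bears on this count. Prss28, Prss29, Spink1 and Ttr would not have passed the filter on the saline and Day 3 count libraries alone, and entered through the Day 8 libraries in which they are high, so 5 of 8 is no fair count against that share. Wfdc3 would have passed it. The median log2 fold change of the members was 2.96, a description under the same limit, against -0.01 over all genes, and Prss28 lies above it also at its lower bound. With Benjamini-Hochberg adjustment in edgeR, 0 members and 0% of all genes passed an adjusted p of 0.1, with an adjusted p of 0.956 for each member. By the unadjusted P of 0.05 alone, 5 members and 658 genes passed. DESeq2 called 49 genes at the adjusted p of 0.1, Prss29 and Spink1 among them. In 2 members, Ttr and Wfdc3, every Day 8 library lay above both saline-treated libraries, and the groups did not overlap in 19.2% of all genes. Without Day 8 replicate 1, 6 of 8 members passed the unadjusted limits, and 6.69% of all genes. With a saline-treated library left out, 1 of 8 did, Foxa2 without saline replicate 1, where 1.89% of all genes passed, and Wfdc3 without saline replicate 2, where 10% did. Leaving out Day 8 replicate 3 left 3 of 8, and 1.5% of all genes.

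Between CXCL12 Day 3 and saline, 1 of 8 members passed the unadjusted limits, Cxcl15, which was lower at Day 3. Of the 16472 genes tested by limma, 4.75% passed. The 8 members are no fair count against this share. Prss28, with 0 counts in all saline-treated and Day 3 libraries, and Ttr, with 0 to 2, entered the test through their Day 8 values, as their mean log2 values without Day 8 were 0.14 and 0.77, under the minimum of 1. Prss29, with 1 to 4 counts, passed that minimum at 1.49. At the adjusted p of 0.1 in limma, 0 members and 0% of all genes passed, while 1201 genes had an unadjusted P under 0.05 and edgeR on estimated counts again called 1 member by the unadjusted limits, and 5.15% of all genes. The groups did not overlap in 2 members, Cxcl15 and Ttr, and in 47.5% of all genes. Ttr was under 3 counts in all of these libraries, so no direction is set for it.

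Between CXCL12 Day 8 and CXCL12 Day 3, 4 of 8 members passed the unadjusted limits, all higher at Day 8, and 4.91% of all genes did. They were Prss28, Prss29, Ttr and Wfdc3, of which Prss28 and Ttr were tested through their Day 8 values, so this too is no fair count against the share. At the adjusted p of 0.1 in limma, 0 members and 0% of genes passed, and 1170 genes had an unadjusted P under 0.05. By edgeR on estimated counts 7 of 8 members passed the unadjusted limits, all but Sox9, and 5.58% of all genes. Every Day 8 library lay above both Day 3 libraries in 4 members, Foxa2, Cxcl15, Ttr and Wfdc3, where 31.7% of all genes did not overlap. The median log2 difference of the members was 3.19, and 2.64 with Prss28 and Ttr at their lower bounds, against 0 over all genes. Day 8 replicate 1 held 0 or 1 counts of Prss28, Prss29 and Spink1, so fits without it drop the Day 8 library that lacks them. Without Day 8 replicate 1, 7 of 8 members and 11.2% of all genes passed the unadjusted limits, and Prss28, Prss29 and Spink1 had adjusted p-values of 0.00154, 0.00154 and 0.00711 in limma. Without Day 3 replicate 1, 1 of 8 members and 2% of all genes did, and without Day 3 replicate 2 or Day 8 replicate 3, 2 of 8 and 2.19% or 3.6% of all genes. A pseudocount of 0.1 or the absence of a filter also left 2 of 8, with 4.61% and 3.93% of all genes. Any pair of these comparisons shares its saline-treated, Day 3 or Day 8 libraries, so they are not independent of one another.

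**Figure D1:**
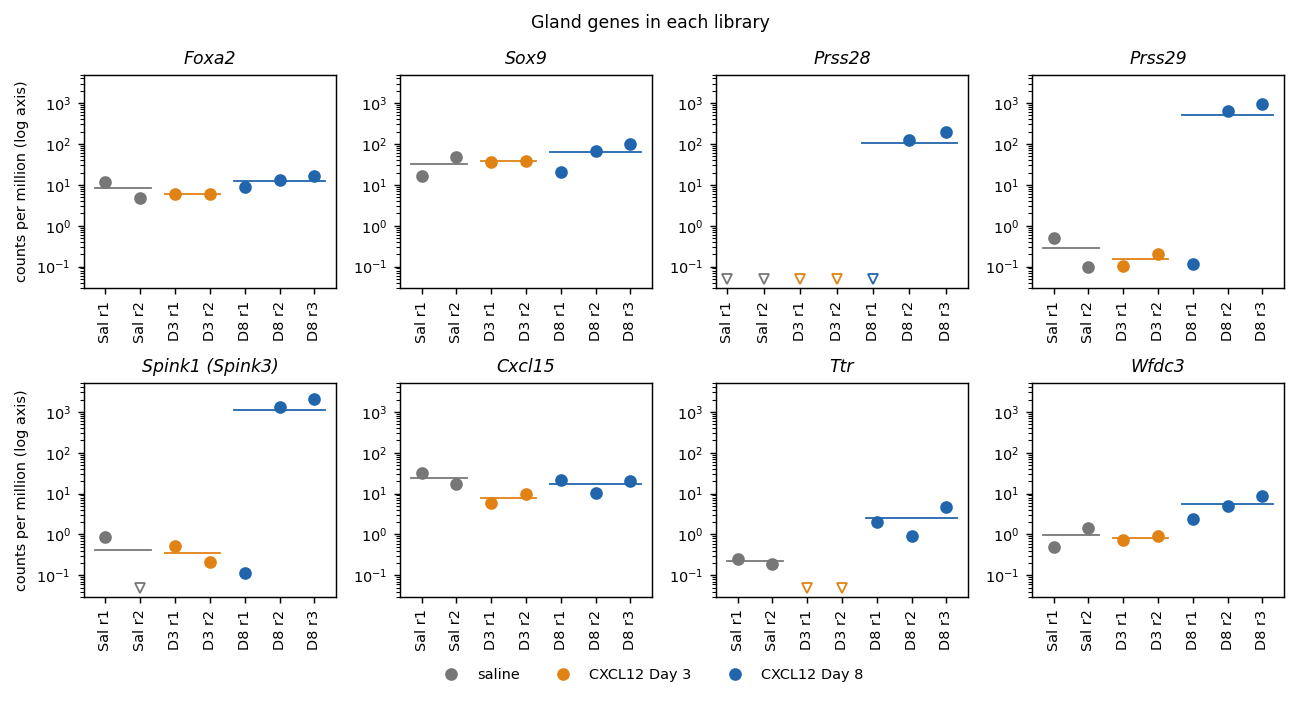
Level of each gland gene in each library, in CPM on a log axis. Points are libraries, horizontal lines are group means, and open triangles mark libraries with 0 counts (Sal, saline; D3, CXCL12 Day 3; D8, CXCL12 Day 8; r, replicate). Prss28, Prss29 and Spink1 are high in Day 8 replicates 2 and 3 and at or near 0 in the other 5 libraries.

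**Figure D2:**
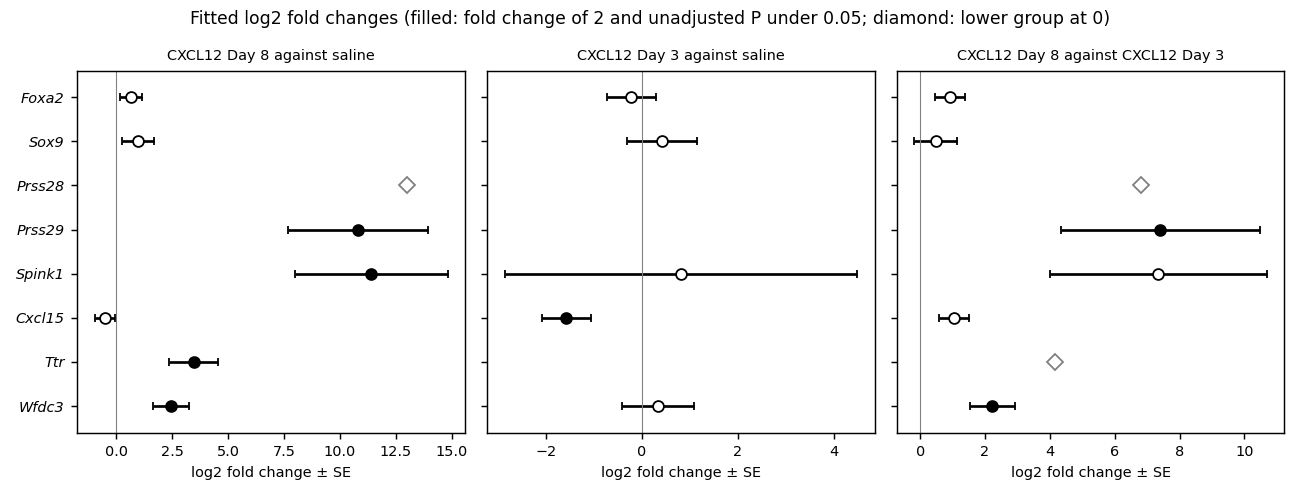
Log2 fold change of each gland gene in the 3 comparisons, with the standard error as the bar. Day 8 against saline is from edgeR and the others are from limma on log2 values. Filled points passed the unadjusted limits. Diamonds are drawn without an error where the lower group is at 0 in every library, and genes at or under 3 counts in both groups are left out.

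The gland transcription factors were detected in every library. Foxa2, on the minus strand of chromosome 2, had 11.5 and 4.83 CPM in saline replicates 1 and 2. The Day 3 libraries had 6.12 and 5.90 CPM, and the Day 8 libraries had 8.63, 13.2 and 16.1. Saline replicate 1 lay within the Day 8 range, while both Day 3 libraries lay below all 3 Day 8 libraries. The Day 8 mean was 12.6 ± 3.74 CPM (SD, n = 3), a log2 fold change of 0.64 against saline (standard error 0.49, unadjusted P = 0.238 from edgeR), and 0.85 without Day 8 replicate 1 (unadjusted P = 0.139 from edgeR). Against Day 3 the difference was 0.92 (standard error 0.46, unadjusted P = 0.0808 from limma), and 1.15 without Day 8 replicate 1 (unadjusted P = 0.0471 from limma). The log2 fold change against saline depended on which saline-treated library was kept. It was 1.39 (unadjusted P = 0.0454 from edgeR) without saline replicate 1 and 0.14 (unadjusted P = 0.780 from edgeR) without saline replicate 2.

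Sox9, on chromosome 11, had 16.9 and 46.8 CPM in saline. In the Day 3 libraries it had 37.0 and 38.8 CPM, and in the Day 8 libraries 20.2, 66.2 and 101. The highest levels were those of Day 8 replicates 2 and 3, but Day 8 replicate 1 lay below saline replicate 2, so all 3 groups overlapped. The log2 fold change between Day 8 and saline was 0.97 (standard error 0.71, unadjusted P = 0.210 from edgeR), which became 1.39 (unadjusted P = 0.0408 from edgeR) without Day 8 replicate 1. Other omissions gave 0.42 (saline replicate 1, unadjusted P = 0.643 from edgeR), 1.90 (saline replicate 2, 0.0960) and 0.44 (Day 8 replicate 3, 0.542), and the block on replicate number gave 0.38 (0.481). Against Day 3 it was 0.48 (standard error 0.66, unadjusted P = 0.493 from limma), turned to -0.01 without Day 8 replicate 3, and was 1.15 without Day 8 replicate 1 (unadjusted P = 0.0416 from limma).

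The glands are a small share of the epithelium, and the libraries differed in epithelial markers. The 12 epithelial markers, keratins and claudins among them, summed to 819 and 1260 CPM in saline, to 1440 and 1400 at Day 3 and to 1450, 686 and 1240 at Day 8. Day 8 replicate 2 had the lowest sum of all 7 libraries, but the markers did not move together. Of the 12, 1 was higher and 0 lower at Day 8 than in saline, Cldn3 at 1.57 (unadjusted P = 0.0224 from edgeR). Cldn3 was at 0.95 without Day 8 replicate 3 (unadjusted P = 0.057 from edgeR). Without Day 8 replicate 1, 2 were higher, Cldn3 and Cldn4, and 1 lower, Krt19 at -1.05 (unadjusted P = 0.0322 from edgeR). Between Day 8 and Day 3, 1 was higher and 1 lower, and 2 were higher and 5 lower without Day 8 replicate 1. Per 1000 CPM of these markers, Sox9 was at 20.7 and 37.2 in saline, 25.6 and 27.7 at Day 3 and 13.9, 96.5 and 81.7 at Day 8. Foxa2 was at 14.1 and 3.83 in saline, 4.24 and 4.21 at Day 3 and 5.94, 19.2 and 12.9 at Day 8. On this scale too, Sox9 was highest in Day 8 replicates 2 and 3 and Foxa2 overlapped between saline and Day 8. As the markers went both ways, the scale is no measure of the epithelial share alone. In such bulk tissue, fewer cells of a type and less RNA per cell cannot be told apart.

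Prss28, the first of the implantation serine peptidases, lies at chr17:25308646-25311876 of GRCm38. It had 0 counts in both saline-treated libraries, Day 3 replicate 2 and Day 8 replicate 1, and an estimated 0 in Day 3 replicate 1. Day 8 replicate 2 held 1511 counts of it and Day 8 replicate 3 held 1854, at 125 and 192 CPM. The Day 8 group therefore spanned the levels of the other groups. Its mean of 106 ± 97.4 CPM (SD, n = 3) was at least 321-fold higher than the saline floor of 3 counts per library, 0.329 CPM. The bound was at least 482-fold without Day 8 replicate 1. The test of Day 8 against saline gave an unadjusted P of 0.016 from edgeR, and that of Day 8 against Day 3 gave 0.0416 from limma. With Day 8 replicate 1 left out, the adjusted p against saline was 0.0295 from edgeR. That omission takes out the Day 8 library at 0, and Prss28 was tested through Day 8 replicates 2 and 3. No conclusion is drawn from this adjusted p. The unadjusted P was 0.0746 without saline replicate 1 and 0.0768 without saline replicate 2.

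Prss29 lies 6777 bases downstream on the same strand, at chr17:25318654-25322684. It had 4 and 1 counts in saline, an estimated 1 in Day 3 replicate 1, 2 in Day 3 replicate 2 and 1 in Day 8 replicate 1, against 7720 and 8997 in Day 8 replicates 2 and 3. These last were 637 and 932 CPM, while no other library passed 0.490 CPM. As with Prss28, the groups overlapped through Day 8 replicate 1. Against the pooled saline counts, Day 8 replicate 2 was 2360-fold (95% interval 1010 to 7270) and Day 8 replicate 3 was 3450-fold (1480 to 10600) higher, by exact intervals that cover counting error only. Day 8 replicate 1 had a ratio of 0.432 (0.00914 to 3.86) to saline. The log2 fold change between Day 8 and saline was 10.82 (standard error 3.13, unadjusted P = 0.0103 from edgeR). It was 11.42 without Day 8 replicate 1, with an adjusted p of 0.0282 from edgeR, under the limit given for Prss28. Leaving out saline replicate 1 gave 12.23 (unadjusted P = 0.0732 from edgeR) and leaving out saline replicate 2 gave 10.03 (unadjusted P = 0.0850 from edgeR).

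The 2 peptidase genes were in a similar proportion in both libraries that held them. Prss28 supplied 16.4% (95% exact interval 15.6 to 17.1) of the counts of the pair in Day 8 replicate 2 and 17.1% (16.4 to 17.8) in replicate 3. The intervals overlap and cover counting error only, as amplified reads are not independent molecules. No 50-base stretch of the last 500 transcribed bases of any member occurred in another gene, so reads of these genes had no identical copy to be shared with in this stretch. Within 100 kb of the pair, the tables hold 9 other protein-coding genes. Prss34, a mast cell peptidase 8478 bases away, had 3 counts in Day 8 replicate 3 and 0 in each other count library. Tpsb2, a mast cell tryptase, had 22 and 20 counts in saline, 13 in Day 3 replicate 2, and 8, 87 and 57 in Day 8 replicates 1, 2 and 3.

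Among the secretory products, the peptidase inhibitor Spink1 (Spink3) had the most counts of all members in Day 8 replicates 2 and 3 only. Counts in 3′ sequencing are not divided by length. These 2 libraries held 15609 and 19457 counts of Spink1, at 1290 and 2020 CPM, which ranked 82 and 53 among the 23282 rows. In saline it had 7 and 0 counts, in Day 3 replicates 1 and 2 an estimated 5 and 2, and in Day 8 replicate 1 it had 1, at no more than 0.858 CPM in any of them. The same 2 libraries were high as for the peptidases, and the Day 8 group overlapped the others through replicate 1. Against the pooled saline counts, Day 8 replicate 2 was 3410-fold (95% interval 1650 to 8470) and replicate 3 was 5330-fold (2590 to 13300) higher. Against saline, the log2 fold change was 11.40 (standard error 3.42, unadjusted P = 0.0121 from edgeR). It was 12.00 without Day 8 replicate 1, with an adjusted p of 0.0531 from edgeR, under the limit given for Prss28. Its value became 16.44 (unadjusted P = 0.0675 from edgeR) without saline replicate 1, where the other library is at 0 and the value is no bound, and 10.31 (unadjusted P = 0.0897 from edgeR) without saline replicate 2. Counts of Spink1 per count of Prss29 were 2.02 and 2.16 in Day 8 replicates 2 and 3. Prss28, Prss29 and Spink1 together made up 0.202% and 0.305% of all counts in these libraries.

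Cxcl15, on chromosome 5, did not follow the peptidases. It had 32.1 and 17.3 CPM in saline, 5.81 and 9.52 at Day 3, and 21.7, 10.3 and 20.1 in Day 8 replicates 1, 2 and 3. Both Day 3 libraries lay below both saline-treated libraries and below all Day 8 libraries, and saline and Day 8 overlapped. The log2 difference between Day 3 and saline was -1.58 (standard error 0.51, unadjusted P = 0.0138 and adjusted p = 0.635 from limma). Under the alternatives this difference lay between -2.07 and -1.09. It did not pass the unadjusted limits without saline replicate 1 or without Day 3 replicate 1. With Day 8 replicate 1 counted with Day 3 the unadjusted P was 0.0842 from limma. For Day 8 against Day 3 the log2 difference was 1.05 (standard error 0.46, unadjusted P = 0.0524 from limma). For Day 8 against saline it was -0.51 (standard error 0.44, unadjusted P = 0.286 from edgeR). Leaving out Day 8 replicate 1 gave 0.83 (unadjusted P = 0.135 from limma) and -0.70 (unadjusted P = 0.197 from edgeR), and without Day 8 replicate 2 the former was 1.42 (unadjusted P = 0.0142 from limma). Under all the alternatives, the difference between Day 8 and Day 3 lay between 0.34 and 1.42. A microRNA gene, Gm24322, overlaps Cxcl15 on the other strand, and the strand used in counting is not given in the sources used here.

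Ttr was at a low level throughout. It had 2 counts in each saline-treated library, 0 in Day 3 replicate 2 and an estimated 0 in Day 3 replicate 1, against 17, 11 and 46 in Day 8 replicates 1, 2 and 3. All 3 Day 8 libraries, at 1.98, 0.907 and 4.76 CPM, lay above the others, and replicate 1 was not the lowest of them. Relative to the pooled saline counts, the ratios were 9.18 (95% interval 2.99 to 37.5), 4.20 (1.24 to 18.1) and 22.1 (8.05 to 84.4), which cover counting error only. The log2 fold change against saline was 3.47 (standard error 1.10, unadjusted P = 0.0157 from edgeR). Its unadjusted P was 0.0672 without saline replicate 1, 0.0856 without saline replicate 2 and 0.0754 without Day 8 replicate 3. Without Day 8 replicate 1, the log2 fold change was 3.62 (unadjusted P = 0.0242 from edgeR). The Day 8 mean was at least 8.28-fold higher than the Day 3 floor of 3 counts per library, and the difference had an unadjusted P of 0.00133 and an adjusted p of 0.594 from limma.

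Wfdc3, on the minus strand of chromosome 2, had 4 and 15 counts in saline, an estimated 7 and 9 at Day 3, and 21, 62 and 85 at Day 8. In CPM these were 0.490 and 1.45, then 0.714 and 0.931, then 2.45, 5.11 and 8.80. Every Day 8 library lay above every other library. The log2 fold change from saline to Day 8 was 2.46 (standard error 0.81, unadjusted P = 0.0190 from edgeR), with an unadjusted P of 0.103 without saline replicate 1 and 0.0690 without Day 8 replicate 3. It was 2.80 without Day 8 replicate 1 (unadjusted P = 0.00894 from edgeR). From Day 3 to Day 8 it was 2.22 (standard error 0.69, unadjusted P = 0.0115 from limma), and 2.62 without Day 8 replicate 1.

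Across the 7 libraries, on the log2 scale used for limma, Prss28, Prss29 and Spink1 correlated with each other at a Pearson r of 0.99. Day 8 replicates 2 and 3 set this value, as the other 5 were near 0 for all 3 genes. Cxcl15 correlated with these genes at between -0.07 and -0.03. The genes most like Prss29 were sought among 2965 non-member genes with a standard deviation of at least 1 over the libraries. They were Ctla2a (r = 0.9992), which encodes a cysteine peptidase inhibitor, Errfi1 (0.9944), a feedback inhibitor of the EGF receptor, Pip (0.9931), Defb1 (0.9913), an antimicrobial defensin, and Gm5886 (0.9906). Of the candidates, 92 had an r over 0.9. Errfi1 had 12.6 and 10.5 CPM in saline, 11.1 in Day 8 replicate 1, and 64.5 and 75.5 in Day 8 replicates 2 and 3. Pip was at 12.1 and 14.7 CPM in these 2 libraries and at 0 in the other 5.

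The genes most like Foxa2 were Ccl5 (r = 0.9808), a chemokine of T and NK cells, Ifng (0.9784), the gene of interferon gamma, Pglyrp2 (0.9672), Samd3 (0.9587) and 1700028P14Rik (0.9546). Ifng and Pglyrp2 were near the floor, with no more than 0.932 and 1.07 CPM in any library and 0 in 3 libraries each. Ccl5 had 14.8 and 2.61 CPM in saline, 5.20 and 5.69 at Day 3 and 13.6, 22.9 and 30.2 at Day 8. For Cxcl15, they were Ppp1r3fos (0.9477), 5730522E02Rik (0.9151), Lyst (0.9092), Cd46 (0.8961) and Adgrl3 (0.8863), most of them near the floor. Lyst, a lysosomal trafficking gene, had 16.8 and 3.67 CPM in saline, no more than 1.97 at Day 3 and between 2.39 and 6.07 at Day 8. These are correlations over the same 7 libraries, which differ in depth and group, given as a description.

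The members were set beside other peptidases and inhibitors of their families. Of 11 other trypsin-like and tryptase peptidases, 5 were tested between Day 8 and saline, with a median log2 fold change of -0.16 and 0 past the unadjusted limits. Tpsb2 was the 1 gene to pass when Day 8 replicate 1 was left out, at 1.5 (unadjusted P = 0.0268 from edgeR). In the same comparison Prss22 went the other way, at -1.18 with all libraries and -2.12 without saline replicate 1. Prss22 and Prss27, both epithelial peptidases, were higher at Day 3 than in saline by limma, with log2 differences of 3.45 (unadjusted P = 0.0400) and 3.32 (unadjusted P = 0.0166). Without saline replicate 1, the differences were 0.96 (unadjusted P = 0.310) for Prss22 and 2.59 (unadjusted P = 0.0925) for Prss27. Prss22 had 0.245 and 8.30 CPM in saline, at least 14.3 at Day 3 and between 0.825 and 3.52 at Day 8. Of 26 other genes of the WFDC and Kazal inhibitor families, 14 were tested between Day 8 and saline, with a median of 0.16, 0 higher and 2 lower. Those lower were Wfdc21 (-2.42, unadjusted P = 0.0124) and Spink2 (-2.32, unadjusted P = 0.0218). Without Day 8 replicate 1, the median was -0.23 and 4 were lower, Wfdc21, Spink2, Spink8 and Spink12. Without saline replicate 2, Wfdc21 was at -1.07, and Wfdc17, at 0.27 with all libraries, was at 1.98. Spink2 did not pass when any of the 4 libraries other than Day 8 replicate 1 was left out, with an unadjusted P from edgeR between 0.0535 and 0.102.

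Spink12, a Kazal-type gene like Spink1, was lowest in the libraries that were highest in Spink1. It had 201 and 150 CPM in saline, 420 and 428 at Day 3, and 102, 0 and 0.207 in Day 8 replicates 1, 2 and 3. Every Day 8 library lay below every other one, and Day 8 replicate 1, where Spink1 was near 0, was the nearest to them. Between Day 8 and Day 3, its log2 difference was -7.96 (standard error 2.40, unadjusted P = 0.0102 from limma), and -10.97 without Day 8 replicate 1 (adjusted p = 0.00154 from limma). Wfdc15b, in turn, was higher at Day 8 than at Day 3 by 1.20 (unadjusted P = 0.0012 from limma), with 16.6 and 16.8 CPM at Day 3 and 36.2, 36.2 and 46.1 at Day 8. The most abundant of these 26 genes was Wfdc2, at between 337 and 1280 CPM, which Spink1 exceeded in Day 8 replicates 2 and 3.

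Of 17 genes of gland formation and Wnt signalling, 1 was higher and 0 lower at Day 8 than in saline, with a median log2 fold change of -0.12. The gene was Fgfr2, the epithelial receptor of FGF7 and FGF10, at 1.18 (unadjusted P = 0.0469 from edgeR). Fgfr2 was at 1.49 without Day 8 replicate 1 (unadjusted P = 0.00741 from edgeR) and at 0.66 without Day 8 replicate 3 (unadjusted P = 0.162 from edgeR), and leaving out Day 8 replicate 1 was the 1 omission of 5 under which it passed. Wnt4, at -0.89 between Day 8 and saline, was lower at -1.83 without Day 8 replicate 2 (unadjusted P = 0.016 from edgeR). Between Day 3 and saline, 2 were lower, the Wnt pathway gene Lgr5 at -2.07 (unadjusted P = 0.00188 from limma) and the homeobox gene Msx1 at -1.48 (unadjusted P = 0.00788 from limma). Lgr5 had 9.07 and 8.78 CPM in saline, 1.63 and 2.07 at Day 3 and 5.95, 8.08 and 13.4 at Day 8. Like Cxcl15, it was lower in both Day 3 libraries than in all other libraries. Between Day 8 and Day 3, 5 of the 17 were higher and 0 lower, led by Msx1 at 1.89 and Lgr5 at 2.02. When Day 8 replicate 1 was left out, 4 were higher and 1 lower, with Msx1 at 1.68, Lgr5 at 2.23 and the lower one, Msx2, at -2.69. Of the 6 genes of LIF signalling, 0 passed the limits between Day 8 and saline, and 1 did without Day 8 replicate 1, Socs3 at 1.03 (unadjusted P = 0.0298 from edgeR). Lif itself, which glands secrete under oestrogen, had no more than 1.33 CPM in any library.

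**Figure D3:**
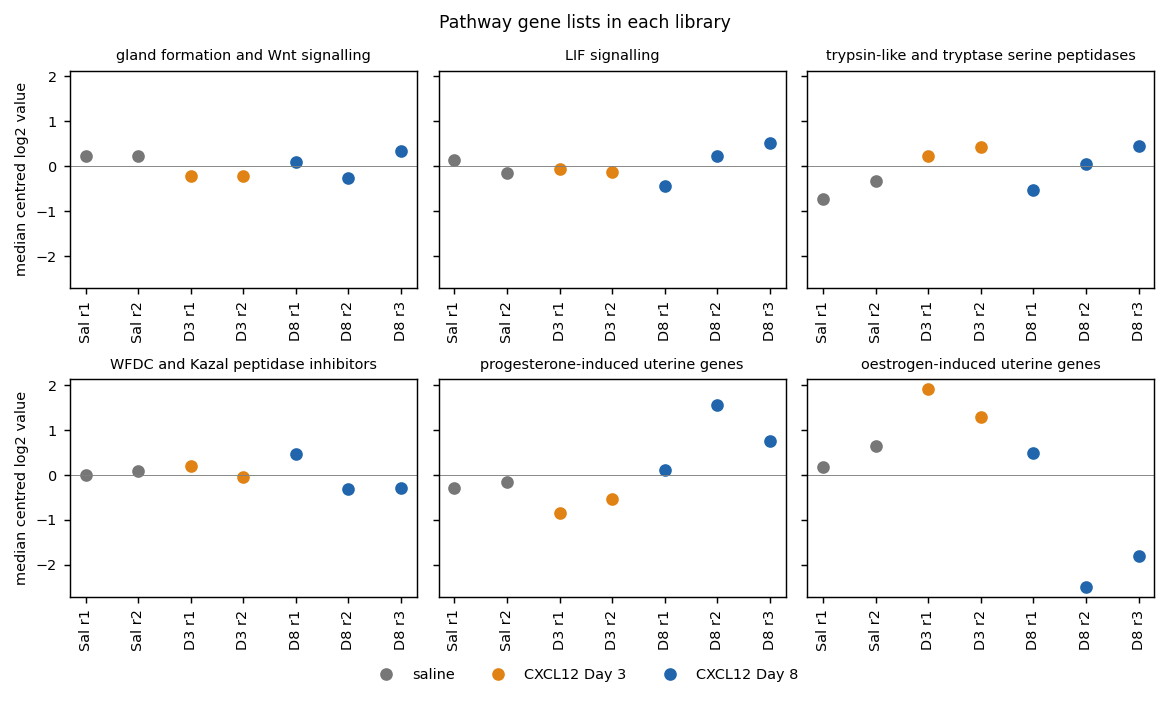
Each point is the median of a gene list in one library, on log2 values centred per gene over the 7 libraries. In Day 8 replicates 2 and 3 the progesterone-induced genes have their highest values, 1.55 and 0.75, and the oestrogen-induced genes their lowest, -2.49 and -1.80.

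Hormone-responsive gene lists also had their highest or lowest medians in Day 8 replicates 2 and 3. The list of progesterone-induced uterine genes had a median, on log2 values centred over the 7 libraries, of -0.28 and -0.15 in saline, -0.85 and -0.53 at Day 3 and 0.12, 1.55 and 0.75 in Day 8 replicates 1, 2 and 3. All Day 8 libraries lay above the others, and replicate 1 was nearest to them. Of 12 tested, 3 were higher and 0 lower at Day 8 than in saline, with a median of 1.35. Those 3 were Il13ra2, Calca and Lrp2. Calca had 0 and 2 counts in saline and 1, 61 and 50 at Day 8. It was tested through Day 8 replicates 2 and 3, in which it is high, so its call is no fair part of this count. The count was 6 higher without Day 8 replicate 1, 2 higher (Il13ra2 and Areg) without saline replicate 1, and 3 higher (Il13ra2, Lrp2 and Gata2) and 1 lower (Nr2f2) without saline replicate 2. Il13ra2 passed with any 1 library left out. Calca did not pass without saline replicate 1 (unadjusted P = 0.133 from edgeR), saline replicate 2 (0.0667) or Day 8 replicate 3 (0.0501). Lrp2 did not pass without saline replicate 1, at 2.15 (unadjusted P = 0.151 from edgeR), or Day 8 replicate 3, at 1.81 (0.0897), and was at 5.10 without saline replicate 2. Calca, the calcitonin gene, had 0 and 0.193 CPM in saline and 0.117, 5.03 and 5.18 at Day 8. The endocytic receptor Lrp2 had 0.981 and 7.62 CPM in saline, 2.55 and 2.79 at Day 3 and 8.40, 22.1 and 71.1 at Day 8.

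Oestrogen-induced uterine genes were at 0.18 and 0.64 in saline, 1.91 and 1.30 at Day 3 and 0.50, -2.49 and -1.80 at Day 8 on the same scale. The lowest values were those of Day 8 replicates 2 and 3, the libraries with Prss28, Prss29 and Spink1, and the highest those of Day 3. Between Day 8 and saline, 1 of 10 tested was lower, lactoferrin (Ltf) at -1.93 (unadjusted P = 0.0202 from edgeR), and 0 were higher. Ltf had 161 and 29.2 CPM in saline and 31.7, 26.0 and 16.8 at Day 8, so the groups overlapped. Without saline replicate 1 its value was -0.24 (unadjusted P = 0.597 from edgeR) and 0 of the list passed. Of 9 tested without Day 8 replicate 1, 7 were lower. Between Day 8 and Day 3, 6 of 10 were lower and 0 higher, and 7 were lower without Day 8 replicate 1. The keratinocyte-type gene Sprr2f had 269 and 226 CPM in saline, 655 and 560 at Day 3 and 115, 3.30 and 9.11 at Day 8. The part of hormone state in the members' levels was not tested.

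**Figure D4:**
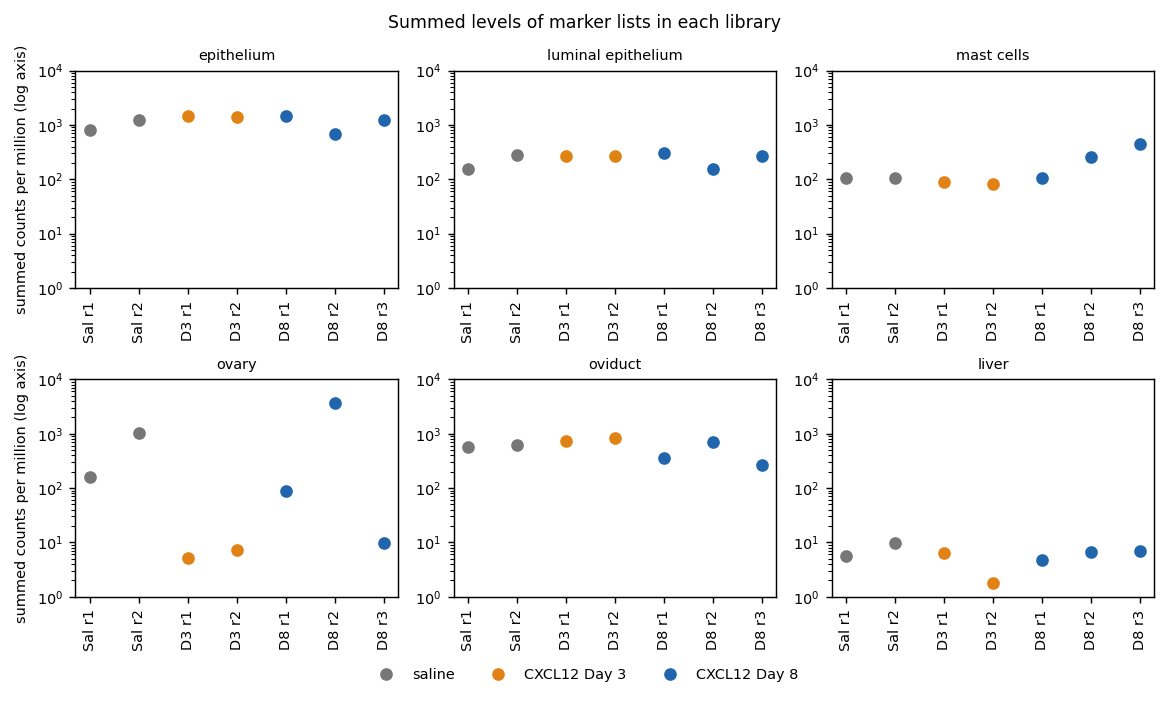
Summed CPM of 6 marker lists in each library, on a log axis. The ovary markers sum to 3670 CPM in Day 8 replicate 2 and to 9.94 in Day 8 replicate 3, while Prss28, Prss29 and Spink1 are high in both.

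Markers of the tissue and of its neighbours were read beside these values. Of 7 genes of uterine identity, all but Hoxa13 were detected in every library, and Hoxa10 had between 83.4 and 290 CPM. The 8 ovary markers summed to 159 and 1040 CPM in saline, 5.20 and 7.35 at Day 3 and 89.5, 3670 and 9.94 in Day 8 replicates 1, 2 and 3, with Hsd3b1 the most abundant in the higher libraries. In Day 8 replicate 3, which had the highest Prss28, Prss29 and Spink1, 3 of the ovary markers were at 0 and Hsd3b1 was at 0.414 CPM. The 7 oviduct markers summed to between 263 and 818 CPM, mostly Ovgp1, and were lowest in that same library, where 3 of them were at 0. Spink1 and Ttr are also known from pancreas, liver, yolk sac and choroid plexus. The 11 pancreas markers summed to between 4.92 and 7.97 CPM, mostly Cela1, and Prss2 had no more than 0.660 CPM. The 9 liver markers summed to between 1.76 and 9.65 CPM, with Alb at no more than 5.20. One liver gene, Fgg, had 7 and 30 counts in Day 8 replicates 2 and 3, at 0.577 and 3.11 CPM, and 0 in the other 5 libraries. Between Day 8 and saline, 0 of 4 liver genes tested passed. Fgg did without Day 8 replicate 1 (unadjusted P = 0.0211 from edgeR). It was tested through Day 8 replicates 2 and 3, against saline at 0, so no conclusion is drawn from this call. Apoa1 was lower at Day 8 than in saline without Day 8 replicate 2, at -3.92 (unadjusted P = 0.0163 from edgeR). The 9 yolk sac and trophoblast markers summed to between 9.94 and 29 CPM, mostly Rbp4, at 9.16 to 28.1. The 6 choroid plexus markers summed to between 3.00 and 16.7 CPM, mostly Folr1, which was highest in Day 8 replicate 2 at 15.8, and Otx2 was at 0 in every library. The part of these tissues in the members' levels was not tested.

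The summed smooth muscle markers, of the myometrium, were also highest in the 2 libraries that held the peptidases. Not every gene followed the sum. Cnn1 was highest in Day 3 replicate 2, at 415 CPM, against 396 and 381 in Day 8 replicates 2 and 3. The 7 genes summed to 2500 and 1650 CPM in saline, 3270 and 3730 at Day 3 and 2000, 4390 and 4190 at Day 8, with Acta2 the most abundant and none at 0. Between Day 8 and saline the median log2 fold change was 0.80, and 2 of 7 were higher by the unadjusted limits, Actg2 and Des. This was 6 of 7, with a median of 1.15, without Day 8 replicate 1, and 0 of 7 without saline replicate 1. For Day 8 against Day 3 the median log2 difference was -0.1, with 0 of 7 past the unadjusted limits. Without Day 8 replicate 1 that median was 0.28, with 1 of 7 higher. The part of smooth muscle in the members' levels was not tested.

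Mast cell markers were higher in the 2 libraries that held the peptidases. The 9 genes summed to 105 and 105 CPM in saline, 88.1 and 81.2 at Day 3 and 104, 261 and 447 at Day 8. Hdc, histidine decarboxylase, was the most abundant, at 91.7 and 81.9 CPM in saline, 66.9 and 67.2 at Day 3 and 93.9, 198 and 394 at Day 8, and was the 1 gene of 7 tested that passed the unadjusted limits between Day 8 and saline. Without Day 8 replicate 1, 5 of 7 were higher, Tpsb2, Cpa3, Cma1, Hdc and Kit, with a median log2 fold change of 1.77 against 1.42 with it, and 0 of 7 passed without either saline-treated library. The mast cell peptidases followed at a lower level. Cpa3 had 18.6 and 16.2 CPM in Day 8 replicates 2 and 3 and between 1.05 and 7.54 in the others, and Cma1 had 17.4 and 12.0 against between 2.22 and 8.36. Kit, the receptor of stem cell factor, had 13.4 and 16.4 against between 2.55 and 8.30. Ms4a2 and Tpsab1 had no more than 0.660 CPM in any library. The part of mast cells in the members' levels was not tested. Adipocyte markers were lower at Day 8 than in saline in 6 of 6 genes by the unadjusted limits, with a median of -2.24, in 5 of 6 without Day 8 replicate 1 and in 3 of 6 without saline replicate 2, and differed between the Day 3 libraries, at 2880 and 303 CPM. Of the 6 luminal epithelium markers, 1 was higher at Day 8 than in saline, the lysophosphatidic acid receptor Lpar3, at 1.62 (unadjusted P = 0.0235 from edgeR), and at 1.98 without Day 8 replicate 1 (unadjusted P = 0.00223 from edgeR). It did not pass without saline replicate 1, at 1.85 (unadjusted P = 0.0671 from edgeR), saline replicate 2, at 1.41 (0.124), or Day 8 replicate 3, at 1.15 (0.0750).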

How the data were processed

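The 7 QuantSeq libraries were read as single ends of 75 bases. Alignment was by Bowtie2, read counts of each gene (unique and multiple alignments) were taken by the authors with Bedtools coverage, and edgeR served for quantile normalization. The submitters' processing notes name the builds hg19 and mm10 with no role, and versions are not given in the sources used here. For 6 libraries the deposited values are raw read counts. For Day 3 replicate 1 the deposited values are log2 of normalized counts plus 1. Undoing the log and dividing by 1.0515 put 97.6% of its 3275 low values within 0.1 of a whole number (20% by chance), and counts were estimated with this factor.

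The members and lists were chosen with earlier results of these data known. The test of Day 8 against saline used edgeR 4.0.16 (quasi-likelihood F test, TMM, filterByExpr) on the 6 count libraries, with 3 residual degrees of freedom. Day 3 was compared with saline and Day 8 by limma 3.58.1 (lmFit, eBayes with a trend) on log2 values with a pseudocount of 1, scaled to 9941132 counts and quantile-normalized over 7 libraries, with genes kept at a mean of at least 1 and 4 residual degrees of freedom. On this log2(value + 1) scale, differences of low genes are understated. P-values were adjusted by Benjamini-Hochberg over all genes, and calls used the unadjusted limits (P under 0.05 and a fold change of at least 2) or an adjusted p of 0.1. Standard errors from edgeR were the log2 fold change divided by the square root of F. The common biological coefficient of variation was 42.2%. No result of the tests on simulated data is reported here.

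Named genes were the 8 members and the 5 most like Prss29, Cxcl15 and Foxa2. Others were taken from the genes of each list past the unadjusted limits (at most 4 in order of P) and its most abundant gene. Not all of these are named. Other list genes, the neighbours of Prss28 and Prss29, Prss2, Cpa3, Cma1, Alb, Otx2, Hoxa10, Hoxa13 and Lif were named after their values were seen, and the search for shared promoter runs and TATAAA was added then. Alternatives were upper-quartile normalization, DESeq2 1.42.0, limma for all comparisons, other filters and pseudocounts, edgeR on estimated counts, the compared groups alone, Day 8 replicate 1 counted with Day 3, the replicate number as a block and leaving out each library. R 4.3.3 was used. The gene coordinates and the promoters are from RefSeq on GRCm38, and the strands, overlapping genes and transcript sequences are from GENCODE. All 35 symbols on several rows were kept apart. Some list genes and neighbouring genes are not reported here.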

Additional observations from a re-analysis of the deposited data

Results flagged for a closer look

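In CPM, Foxa2, Ttr and Wfdc3 lay below the saline mean in both Day 3 libraries and above it in all 3 Day 8 libraries. For Wfdc3 this holds in CPM only, as on the log2 scale of limma both Day 3 libraries, at 3.22 and 3.52, lay above the mean of the saline-treated libraries, at 2.28 and 3.81. For Ttr, the saline-treated libraries, with 2 counts each, and the Day 3 libraries, at 0, were all under 3 counts, so no direction between them is set. The log2 difference between Day 8 and Day 3 was 0.92 for Foxa2, 4.16 for Ttr and 2.22 for Wfdc3 in limma, with unadjusted P of 0.0808, 0.00133 and 0.0115 and adjusted p of 0.718, 0.594 and 0.687. As these genes were picked for this split between Day 3 and Day 8, these P-values restate the choice and are no separate test. How many of all genes are split in this way was not counted. Day 8 and Day 3 did not overlap in 31.7% of all genes. The value of Ttr depends on the pseudocount, as both Day 3 libraries were at 0. The medians of progesterone-induced genes and of luminal epithelium markers were split in the same way, with a mean Day 8 value 1.5 and 0.7 above the mean Day 3 value, and this difference was not tested for the lists.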

How the results depend on the processing

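Of 283 member log2 fold changes recomputed under the alternatives, 252 kept their direction and their side of the adjusted p of 0.1, 15 passed it and 16 changed sign or came to 0. With Day 8 replicate 1 counted with Day 3, 1094 genes passed the unadjusted limits between Day 8 and saline and 58 the adjusted p, and 1959 and 1373 between Day 8 and Day 3. The adjusted p against saline was then 0.00783 for Prss28, 0.00248 for Prss29 and 0.00548 for Spink1. These genes entered the edgeR test through Day 8 replicates 2 and 3, in which they are high. Day 8 replicate 1, with 0 or 1 counts of each, was moved out of the group. No conclusion is drawn from these adjusted p-values. DESeq2 called 49 genes by the adjusted p, with 0.00982 for Prss29 and 0.0717 for Spink1. Leaving out 1 library, where a lone remaining sample is assumed to vary like the other groups, gave between 229 and 1527 genes (adjusted, 0 to 15) for Day 8 against saline, between 300 and 2965 (adjusted, 0 to 2240) for Day 3 against saline, and between 330 and 1851 (adjusted, 0 to 467) for Day 8 against Day 3. For Day 3 against saline, scaling alone gave 1195 genes, and no filter gave 36 by the adjusted p, against 28 for Day 8 against Day 3. With at least 10 counts in every library, 0 members passed between Day 8 and saline, as that filter removes Prss28, Prss29, Spink1, Ttr and Wfdc3.

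The labels share replicate numbers between groups, but state no pairing, and same-numbered libraries deviated with correlations between -0.14 and -0.01. With the replicate block, 157 genes passed the unadjusted limits between Day 8 and saline and 519 between Day 8 and Day 3, with 0 by the adjusted p, and the value of Sox9 in the latter was -0.01. Of the members, 2 of 8 passed the unadjusted limits with the block in each of these comparisons, Prss28 and Wfdc3 at Day 8 against saline and Ttr and Wfdc3 at Day 8 against Day 3. In the block, Prss28 had an unadjusted P of 1.99e-05 and Prss29 of 0.057 from edgeR.

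The sign of some small differences turned. Between Day 3 and saline, edgeR on estimated counts gave 0.00 for Prss28, -0.78 for Prss29, -0.12 for Spink1 and -0.26 for Wfdc3, and scaling alone gave -0.59 for Prss29 and -0.28 for Wfdc3. Ttr was at 0.35 with Day 8 replicate 1 counted with Day 3. Leaving out 1 library gave ranges of -0.90 to 0.46 for Foxa2, -0.30 to 1.13 for Sox9, 0.00 to 0.63 for Prss28, -0.67 to 1.21 for Prss29, -0.71 to 2.26 for Spink1 and -0.45 to 1.11 for Wfdc3, all at Day 3 against saline. It gave -0.88 to 0.00 for Cxcl15 at Day 8 against saline and -0.01 to 1.15 for Sox9 at Day 8 against Day 3. The cause was not tested. With 2 or 3 libraries a group, levels under 3 counts set no direction.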
